A study of Mus musculus with 12 samples.

Results

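A set of 203 genes had lower RNA levels in Alkbh5 KO cells than in both WT and Alkbh5 del-cIDR cells. The set was drawn from 56941 genes listed for the input libraries of an m6A study in mouse embryonic stem cells of the E14TG2a line. Values were put on the CPM scale, which is a gene's reads divided by all reads of the library and multiplied by 1000000. A gene entered the set when its mean over the 6 input libraries was at least 1 CPM and the lowest of its 4 WT and del-cIDR values was at least 1.75 times the higher of its 2 KO values. Of the 14851 genes with such a mean, 207 met this, and 4 of them were left out because the definition of the set names 5 identifiers to be set aside. The remaining 203 genes are 1.37% of the genes with a mean of at least 1 CPM. The members were thus chosen by their CPM in all 6 libraries, so their low KO level is a description and carries no test.

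The 3 genotypes were WT, KO, which lacks Alkbh5, and del-cIDR, whose Alkbh5 lacks its C-terminal intrinsically disordered region. All cells grew with LIF at 1000 U/ml, the MEK inhibitor PD0325901 at 1 µM and the GSK3 inhibitor CHIR99021 at 3 µM. Each genotype had 2 input libraries of fragmented RNA, labelled as polyA RNA, with 19918177 to 36678609 reads in genes. Neither the independence of the cultures behind 2 replicates nor the number of clones of each altered genotype is stated in the labels. The p-values therefore measure the spread between these libraries, which may be technical. A difference that belongs to a clone cannot be told apart from one that belongs to the genotype. In bulk RNA, fewer cells that express a gene and less of its RNA per cell cannot be told apart either.

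Alkbh5 is a demethylase that removes the m6A mark from RNA in the nucleus. The mark is written by a methyltransferase complex and read by proteins that bind it, and it is known to influence splicing, export, translation and decay of mRNA. In embryonic stem cells, m6A is known for limiting the lifetime of transcripts that keep the cells pluripotent. Disordered regions of such enzymes are flexible stretches without a fixed fold. Comparing KO with del-cIDR sets the loss of the whole enzyme beside the loss of that region.

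The files list genes by identifier and do not pair them with symbols, so members are described by level and pattern, with identifiers for a few. For the same reason the deletion of Alkbh5 could not be read from its own transcript here, stem cell markers were not checked, and no gene list, sequence or m6A peak could be tied to a member.

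The members were mostly genes of low to moderate level. In the WT libraries the median member stood at 5.74 and 5.82 CPM, with a range from 0.646 to 373 CPM over both. In the del-cIDR libraries the median was 7.49 and 6.68 CPM, with a range from 1.00 to 387 CPM. In the KO libraries it was 2.10 and 2.09 CPM, with a range from 0.121 to 193 CPM. The KO medians lay below those of the other 4 libraries, as the choice of members fixes, and the del-cIDR medians lay above both WT medians. The median over all 14851 genes was between 22.5 and 23.7 CPM in every library. Together the members made up 0.338% and 0.350% of the reads in WT, 0.403% and 0.387% in del-cIDR, and 0.148% and 0.146% in KO.

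**Figure D1:**
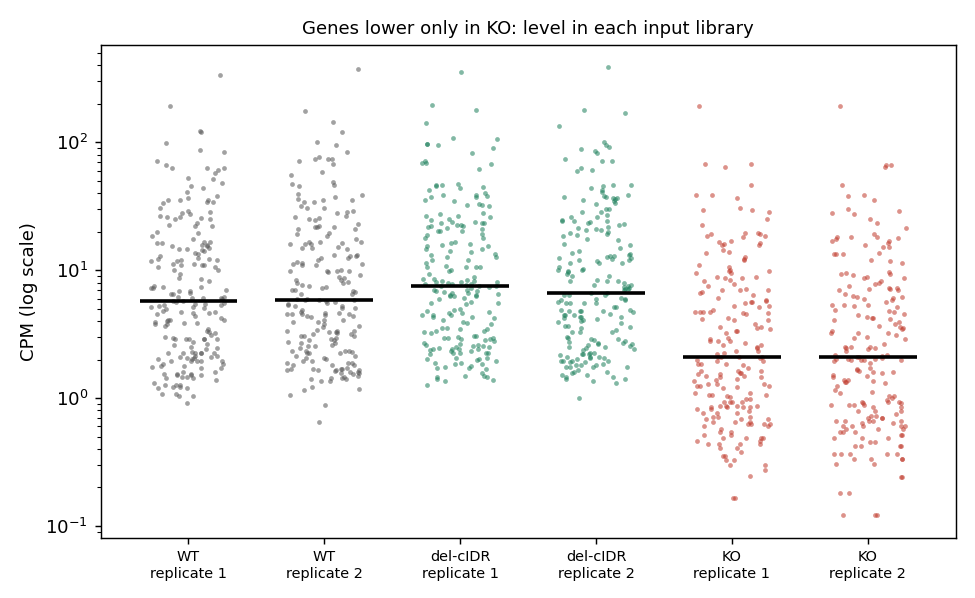
Level of each of the 203 genes in each input library, in CPM on a log axis. Each point is 1 gene and the black line is the library's median, which lies at 2.10 and 2.09 CPM in KO and between 5.74 and 7.49 CPM in the other 4 libraries.

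Members were more frequent among genes of low level. Of the genes with a mean from 1 to under 2 CPM, 2.94% were members (50 of 1702). The share was 2.48% from 2 to under 10 CPM (86 of 3463), 1.09% from 10 to under 50 CPM (53 of 4871) and 0.291% at 50 CPM and above (14 of 4815). The median ratio of the mean of the WT and del-cIDR libraries to the mean of the KO libraries fell in the same order, from 3.71 in the lowest band through 2.85 and 2.46 to 2.39 in the highest. Of the members, 63 had under 30 reads in a KO library and 8 had under 10, while 85 had 100 or more in both KO libraries. No member was at 0 reads in any library.

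The median ratio of the lowest WT or del-cIDR value to the higher KO value was 2.10. The lowest WT or del-cIDR value was between 1.75 and 2 times the higher KO value in 85 members, between 2 and 3 times in 90, between 3 and 4 times in 15, and 4 times or more in 13. The 5 members nearest the threshold had ratios from 1.756 to 1.7699, with means from 9.37 to 306 CPM. The 5 nearest genes outside it had ratios from 1.7462 to 1.7497, with means from 1.76 to 11.9 CPM. Between the means of the other genotypes and KO, the ratio ran from 1.83 to 25, with a median of 2.75. The 13 members with a ratio of 4 or more had means from 1.18 to 32.3 CPM and from 4 to 304 reads in a KO library.

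The lowest KO level relative to the other genotypes belonged to ENSMUSG00000035910. It had 4.10 and 3.94 CPM in WT, 7.52 and 5.52 CPM in del-cIDR, and 0.300 and 0.121 CPM in KO. The KO values rest on 11 and 4 reads, against 103 to 233 reads in the other libraries. That they lie below the others is fixed by the choice of members. ENSMUSG00000120282 had 27.3 and 26.5 CPM in WT, 43.9 and 39.0 CPM in del-cIDR, and 3.35 and 3.57 CPM in KO. Its KO values rest on 123 and 118 reads. Both KO libraries were alike in this gene, and the mean of the other libraries was 9.86 times the KO mean.

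The member with the highest level had 338 and 373 CPM in WT, 354 and 387 CPM in del-cIDR, and 191 and 193 CPM in KO. It was also the member nearest the threshold. The next had 192 and 175 CPM in WT, 197 and 179 CPM in del-cIDR, and 67.5 and 66.9 CPM in KO. In both genes WT and del-cIDR overlapped. Their differences between del-cIDR and WT were 0.06 ± 0.06 (SE, limma adjusted p = 0.571) and 0.03 ± 0.06 (SE, limma adjusted p = 0.778) on the log2(CPM + 1) scale.

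The comparisons that chose the members are given for completeness. In KO against WT, 200 of the 203 members passed as lower (limma on log2(CPM + 1), adjusted p under 0.05), where 14.7% of all 14851 genes did. In del-cIDR against KO all 203 passed as higher, where 20.1% of all genes were higher and 22.9% lower. In KO against WT none passed as higher, where 15.7% of all genes did. The median difference over members was -0.98 and 1.17 on the log2(CPM + 1) scale, which understates changes of low genes. These counts follow from the definition of the set. With the same thresholds, 173 genes were higher in KO than in both other genotypes, 58 were lower and 31 higher in del-cIDR alone, and 6 were lower and 5 higher in WT alone.

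The definition did not compare del-cIDR with WT and treats these 2 genotypes alike. It holds both at 1.75 times the higher KO value or more, and sets no upper bound on either. In 85 members the lowest WT or del-cIDR value was between 1.75 and 2 times that KO value, which left little room below. The same libraries were used, so the shares given here describe the members and are not an independent test. On the CPM scale the members were more often above the WT level than below it in del-cIDR cells, while on the deposited scale 101 of the 203 had a higher mean there. Of the 203 members, 50 rose in del-cIDR against WT and 2 fell (limma, adjusted p under 0.05), while 151 did not pass. This is 24.6% and 0.985% of the members, where 5.18% of all 14851 genes rose and 7.98% fell. The median difference was 0.18 over the members and -0.01 over all genes on the log2(CPM + 1) scale. A higher mean in del-cIDR was found for 152 members (74.9%) and for 47.8% of all genes. Some members near 1 CPM reached the required mean only through del-cIDR, which partly fixes their direction. An example had means of 1.24 CPM in WT, 0.376 CPM in KO and 2.00 CPM in del-cIDR. Such members are among the 152, and some are among those counted by single libraries below.

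The CPM values of the single libraries show the same split without a model. They are the values that entered the rule and the fit, so this count is no separate evidence and holds for the CPM scale only. In 116 members both del-cIDR libraries lay above both WT libraries, which is 57.1% of the members, where 24.5% of all genes had this order. In 22 members both del-cIDR libraries lay below both WT libraries, which is 10.8%, where 27.7% of all genes did. In the other 65 members the libraries of WT and del-cIDR overlapped. For a single gene, 2 libraries against 2 cannot give an exact two-sided permutation p below 0.333, so the calls rest on the spread that limma shares across genes.

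**Figure D2:**
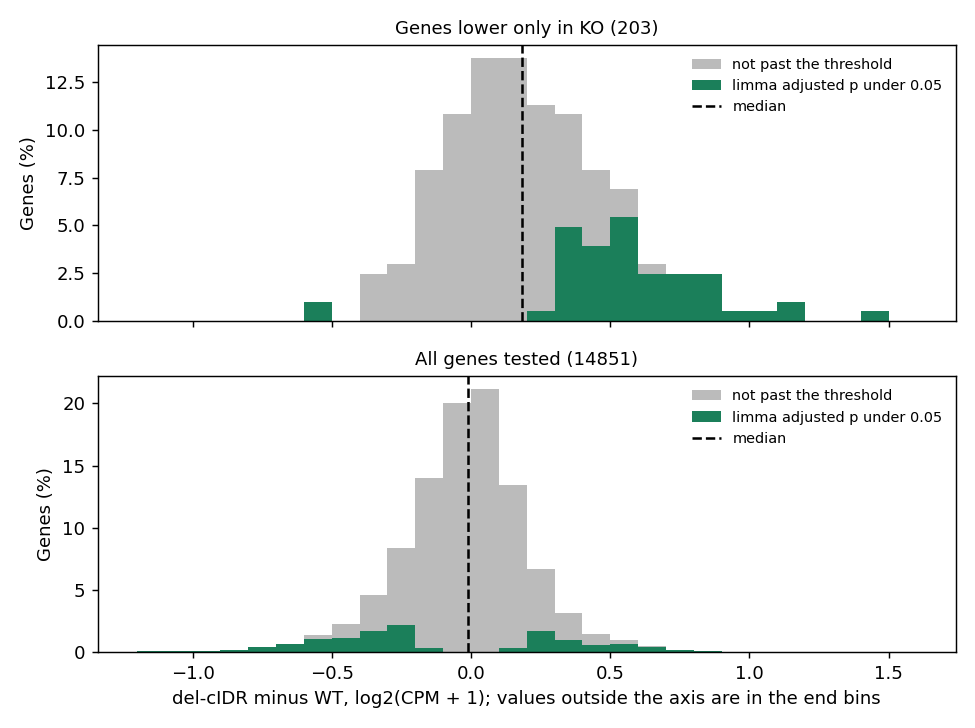
Difference between del-cIDR and WT on the log2(CPM + 1) scale, as percent of genes per bin, for the 203 members (top) and all 14851 genes tested (bottom). Green parts passed the test and the dashed line is the median, at 0.18 for the members and -0.01 for all genes.

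The 50 members that rose in del-cIDR had differences from 0.28 to 1.42 on the log2(CPM + 1) scale, with a median of 0.55. Their mean levels ran from 1.07 to 124 CPM, and in all 50 both del-cIDR libraries lay above both WT libraries. The share of members that rose was above that of all genes in each band of level. From 1 to under 2 CPM 8.0% of the members rose (4 of 50), against 2.0% of all genes in that band. A member among these 4 had means of 0.861 CPM in WT, 0.303 CPM in KO and 2.05 CPM in del-cIDR. It reached a mean of 1 CPM only through del-cIDR, so the share in this band gives no separate support. From 2 to under 10 CPM the shares were 24.4% and 4.27%, from 10 to under 50 CPM 37.7% and 5.65%, and at 50 CPM and above 35.7% (5 of 14) and 6.48%. One member fell in the second band and 1 in the third.

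**Figure D3:**
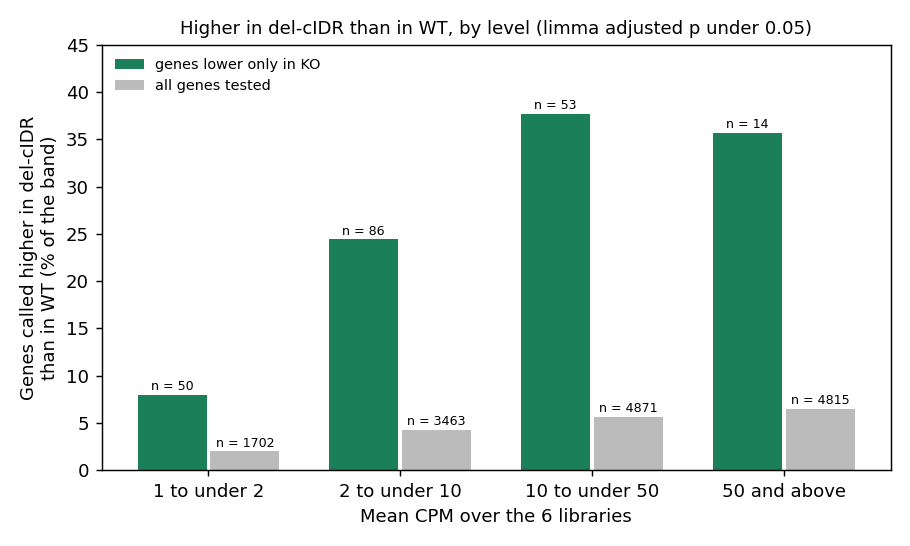
Percent of genes called higher in del-cIDR than in WT (limma, adjusted p under 0.05) by mean level in CPM, for the genes lower only in KO (green) and for all genes tested (grey). The number of genes in each band stands above its bar, and the green bars, from 8.0% to 37.7%, stand above the grey bars, from 2.0% to 6.48%.

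The largest rise was in ENSMUSG00000115691, with 1.51 and 1.67 CPM in WT, 6.84 and 5.17 CPM in del-cIDR, and 0.545 and 0.485 CPM in KO. Both del-cIDR libraries lay above both WT libraries, while the place of KO is fixed by the choice of members. The difference between del-cIDR and WT was 1.42 ± 0.17 (SE) on the log2(CPM + 1) scale (limma adjusted p = 3.37e-05). ENSMUSG00000115813 followed, with 1.47 and 1.59 CPM in WT, 5.58 and 4.07 CPM in del-cIDR, and 0.436 and 0.242 CPM in KO. Its difference was 1.19 ± 0.18 (SE, limma adjusted p = 0.000304). No gene with a mean of at least 1 CPM stands between these 2 genes in the deposited table. If they overlap or resemble each other, their counts may hold the same reads, which was not tested, so they may not be 2 separate observations.

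A better measured member of this kind was the third in size, with 357 and 512 reads in WT and 1082 and 669 in del-cIDR. It had 14.2 and 15.0 CPM in WT, 34.9 and 33.6 CPM in del-cIDR, and 2.81 and 3.24 CPM in KO. Both of its del-cIDR libraries lay above both WT libraries, with del-cIDR 2.34 times WT (difference 1.17 ± 0.11 (SE) on the log2(CPM + 1) scale, limma adjusted p = 2.46e-06). The 2 genes named above for their low KO level rose as well, ENSMUSG00000120282 by 0.60 ± 0.10 (SE, limma adjusted p = 0.000901) and ENSMUSG00000035910 by 0.57 ± 0.17 (SE, limma adjusted p = 0.037).

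Members that fell in del-cIDR stood between WT and KO, which the choice of members fixes for any member below the WT level. ENSMUSG00000021848 had 22.1 and 21.8 CPM in WT, 16.0 and 13.2 CPM in del-cIDR, and 7.01 and 7.24 CPM in KO. Both of its del-cIDR libraries lay below both WT libraries, and the difference between del-cIDR and WT was -0.56 ± 0.12 (SE, limma adjusted p = 0.00349). ENSMUSG00000061576 had 6.45 and 5.91 CPM in WT, 4.49 and 3.61 CPM in del-cIDR, and 1.94 and 1.70 CPM in KO. It showed the same order of levels, with a difference of -0.51 ± 0.16 (SE, limma adjusted p = 0.0374). The call of ENSMUSG00000061576 was lost with edgeR, with DESeq2 and when any library but del-cIDR replicate 1 was left out.

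**Figure D4:**
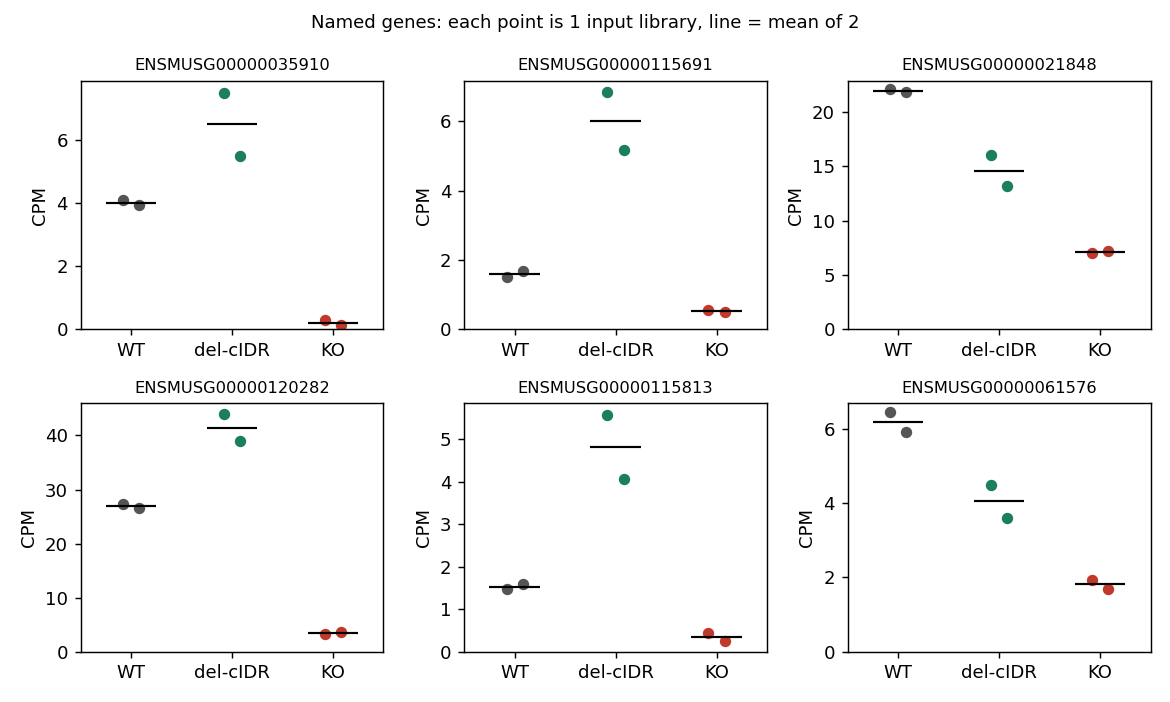
CPM of the 6 genes given by identifier, in the 2 input libraries of each genotype, with a line at the mean. The left column holds the lowest KO levels relative to the other genotypes, the middle column the largest rises in del-cIDR against WT, and the right column the members that fell in del-cIDR. KO is lowest in all 6, which the choice of members fixes.

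In other members WT and del-cIDR overlapped although the KO level was far lower. One of them had 4.58 and 5.02 CPM in WT, 4.94 and 4.72 CPM in del-cIDR, and 0.573 and 0.606 CPM in KO. Its difference between del-cIDR and WT was 0.01 ± 0.16 (SE, limma adjusted p = 0.984), and its KO values rest on 21 and 20 reads. Among the 10 members with the highest means, 4 rose in del-cIDR and 0 fell, while the other 6 did not pass. At 50 CPM and above, 312 of all 4815 genes rose (6.48%) and 504 fell. These 10 had means from 58.8 to 306 CPM. All 10 had a higher mean in del-cIDR than in WT on the CPM scale, where 47.8% of all genes of any level did. In the 6 that did not pass, the differences were only 0.02 to 0.17 on the log2(CPM + 1) scale, with SE of 0.06 or 0.07.

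The replicates of a genotype were close in most members. The median ratio between the higher and the lower replicate was 1.11 in WT, 1.12 in del-cIDR and 1.11 in KO, against 1.08, 1.09 and 1.06 over all genes with reads in every library. Replicates differed by more than 1.5 times in 10 members in WT, 16 in del-cIDR and 22 in KO.

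The number of members called in del-cIDR against WT depended on the scaling and on either WT library. With edgeR 54 rose, 26.6% of the members where 5.91% of all genes did, and 1 fell, where 7.55% of all genes did. Without WT replicate 1, 22 members rose (10.8%), where 2.60% of all genes did. Without WT replicate 2, 31 rose (15.3%), where 2.62% of all genes did. The members called as higher in the fits that left out 1 WT library were all among the 50. The deposited values are scaled by 1 factor per library. The labels do not say what the factors stand for, so which of the scales follows RNA per cell was not tested. On the deposited scale the median gene differed by -0.23 between del-cIDR and WT and by -0.92 between KO and WT. There 0 members rose or fell in del-cIDR against WT (limma, with 2 members at an unadjusted p under 0.05), where 0 of all genes rose and 0.00673% fell. The deposited values of the 2 del-cIDR libraries summed to 85915208 and 46354368, which widens the spread between replicates on this scale. The lack of calls is therefore no evidence of equal levels. The median difference on this scale was -0.00 over the members, 0.23 above that of all genes. That gap follows from the CPM values, because the factors shift all genes nearly alike, and is no separate evidence. A higher mean in del-cIDR was found on the deposited scale for 101 of the 203 members, against 152 on the CPM scale. These 101 include the 50. Each of the 50 lay above the median gene, which follows from their CPM calls because the factors shift all genes nearly alike. Every KO value also lay below the other 4 values there in all 203, which the choice of members fixes. Library totals on this scale were at most 45287943 for KO and at least 46354368 for WT and del-cIDR. Changing from CPM to this scale could therefore only widen a member's ratio to KO. This order, and the direction of the members' KO differences there, is thus no separate evidence. On that scale all 203 passed as lower in KO against WT, where 4.33% of all genes were lower and 0.0606% higher, and 196 passed as higher in del-cIDR against KO, where 3.06% were higher and 0.128% lower.

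Members also lay next to each other in the deposited table more often than their share of genes, though the sources do not state what its order follows. Counting genes with a mean of at least 1 CPM, 36 of the 203 members had another member in the row before or after. Of the 406 rows next to a member, 9.36% held a member, while members are 1.37% of these genes. The same held for the 173 genes that were higher in KO alone, with 16.8% of 346 adjacent rows against a share of 1.16%. Stretches of 5 or more members, each at most 15 rows from the next, were sought after the values were seen. There were 2, with 8 members among 24 genes and 7 members among 29 genes. Shorter stretches could be denser. In the first, the other 16 genes had a median KO difference from WT of -0.06, and 1 of them was called lower. In the second, the other 22 had a median of -0.43, and 11 were called lower. All 15 members in these stretches had a higher mean in del-cIDR than in WT, where 74.9% of all members and 47.8% of all genes did. The median of these differences was 0.32 in the first stretch and only 0.09 in the second. None of the 15 passed that test, where 24.6% of all members and 5.18% of all genes passed as higher. The 50 calls therefore lie outside these 2 stretches, though not apart from other members. The 2 largest rises were in adjacent genes. In a shorter stretch, members differed between del-cIDR and WT by 0.83, 0.51, 0.52 and 0.72 (limma adjusted p = 0.000909, 0.102, 0.118 and 0.0203). All but the first had WT means of 1.06, 1.21 and 0.861 CPM and lower KO means. They reached a mean of 1 CPM over all libraries only through del-cIDR, so their differences give no separate support. Adjacent genes may share reads, and whether they do was not tested.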

How the data were processed

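The deposited mRNA table of the input libraries was used. Among the tools in the submitters' processing notes are HISAT2 and featureCounts, with neither role nor version, and the build is GRCm39. The sources do not state whether reads were counted by strand. What the authors deposited is a signal in which each library's reads are multiplied by its own factor (1.0000 to 2.9813), and in KO replicate 2 the factor is 1, so the deposited values there are counts. Division by the factor gave whole reads for 100% of values (tolerance 0.001 reads). CPM is the deposited value divided by its column sum, times 1000000, and does not depend on the factor.

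The log2(CPM + 1) values entered limma 3.58.1 in R 4.3.3, for 14851 genes with a mean of at least 1 CPM, all genotypes in 1 fit, with a variance trend and Benjamini-Hochberg adjustment over all genes at 0.05. edgeR 4.0.16 and DESeq2 1.42.0 on the recovered reads, other scalings and filters, and fits without single libraries were alternatives. The fits were tested on simulated data. Within each genotype the replicates varied 2.90 to 5.96 times as much as sampling alone would give, so no library was a copy.

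The members and lists were chosen with earlier results of these data known. Genes were named by rule: the largest ratios to KO, the highest levels, and the largest changes in del-cIDR against WT, limited to 2 identifiers per direction because 0 of the genes in the reference table of 49997 carried an identifier found in the files. Gene lists by symbol, markers and m6A per gene were therefore not analysed here.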

Additional observations from a re-analysis of the deposited data

How the results depend on the processing

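The number of members that rose in del-cIDR against WT was 26 with no filter on low values, 32 without the variance trend and 0 on the deposited scaling, and between 22 and 43 when 1 library was left out. With edgeR it was 54, which included all 50, and with DESeq2 it was 40, all among the 50. In 16 of the 50 the call held under every setting but the deposited scaling. The number that fell was 1 with a pseudocount of 0.25 CPM, with no filter, with edgeR, with DESeq2 and without the variance trend, 0 on the deposited scaling, and between 1 and 3 without single libraries. Over all genes, the calls higher and lower in del-cIDR against WT were 288 and 497 with no filter, where 33711 genes were tested, 290 and 430 without the variance trend, 0 and 1 on the deposited scaling, and between 386 and 723 higher and 476 and 1398 lower without single libraries. On the deposited scaling KO against WT gave 9 higher and 643 lower (against 2332 and 2180), and del-cIDR against KO 455 and 19 (against 2980 and 3396). Without single libraries these were 1394 to 2636 and 1175 to 2528, and 1972 to 3015 and 2344 to 3433. Members called lower in KO against WT numbered 183 to 202 without single libraries and 180 to 203 under the other alternatives, and those called higher in del-cIDR against KO 199 to 203 and 196 to 203. The set itself held 118 genes with a threshold of 2 times, 368 with 1.5 times, 707 on the deposited scaling, 212 with TMM scaling, 100 with a mean of at least 5 CPM, and 209 to 322 without single libraries, 322 without KO replicate 1 and 301 without KO replicate 2. With a library left out, the remaining one is taken to have the spread of the other genotypes. Beyond what these settings themselves change, the cause of a difference was not tested. The alternatives for m6A at members' peaks were not run. The replicate numbers as labelled did not pair the genotypes alike: deviations of same-numbered libraries correlated at -0.12 (WT and del-cIDR), -0.14 (WT and KO) and 0.13 (del-cIDR and KO) over 14851 genes. With a replicate block, the members that rose numbered 50 and those that fell 2 in del-cIDR against WT, and 49 of the 50 were the same. With the WT numbers exchanged, a setting chosen after seeing the data, the block gave 58 and 2. Over all genes it gave 1201 higher and 1724 lower, against 769 and 1185 in the main fit, which has no block. Whether the libraries were paired in that order was not tested.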
